A study of Mus musculus with 9 samples.

Results

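Type 1 conventional dendritic cells (cDC1) were picked out of single-cell RNA-seq libraries from mouse liver by their transcripts. A cell was taken as cDC1 when it had at least 200 detected genes, at least 2 unique molecular identifiers (UMIs, counted transcript molecules) of Xcr1, Clec9a and Wdfy4 together with at least 1 from Xcr1 or Clec9a, and at least 3 UMIs of the MHC class II gene H2-Ab1. It also had to lack Cd79a, Cd3e and Siglech, markers of B cells, T cells and plasmacytoid dendritic cells, and to hold under 5 UMIs of the macrophage complement genes C1qa, C1qb and C1qc. The rule took 72 of 8527 cells with at least 200 genes, or of 8562 deposited cells. The cells were thus chosen by measured values, the UMI counts of these genes, and the markers named in the rule are given as a description and were not tested.

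The livers came from C57BL/6 mice that carried ROSA26-rtTA-IRES-EGFP, the doxycycline-dependent transactivator with a green fluorescent reporter, in each of the 3 groups. WT controls (2 libraries) lacked the tetYAP transgene and had doxycycline food for 7 days, whereas tetYAP mice were induced for 3 days (YAP3d, 4 libraries) or 7 days (YAP7d, 3 libraries). According to the study's methods, tetYAP encodes a constitutively active YAP and the transactivator was made active by Cre recombinase under the albumin promoter, which is a promoter of hepatocytes. The labels do not say whether the controls carried Cre. WT and YAP7d therefore shared the length of feeding, while in YAP3d against WT the transgene and the length of feeding cannot be told apart. The labels do not say that each library is a separate mouse, so the p-values measure the spread between these libraries.

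cDC1 are the dendritic cells that take up dead cells and carry their antigens to CD8 T cells. Their development depends on the transcription factors Irf8, Batf3 and Id2. They sense dying cells through the actin receptor Clec9a and double-stranded RNA through Tlr3, and they carry Xcr1, the receptor for the T and NK cell chemokine Xcl1. In the liver they are a small population beside Kupffer cells, monocyte-derived cells, type 2 conventional dendritic cells (DC2) and plasmacytoid dendritic cells (pDC).

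The libraries held between 281 and 2551 cells with at least 200 genes, with a median between 3190.5 and 11471.5 UMIs per deposited cell, highest in YAP7d replicate 3. The cDC1 cells were deep, with a median of 13265.5 UMIs per cell against 5225 over all cells. WT replicates 1 and 2 held 7 and 11 cDC1 cells, YAP3d replicates 1 to 4 held 6, 4, 5 and 18, and YAP7d replicates 1 to 3 held 10, 5 and 6. Of the 72 cells, 10 had a marker sum of 2 UMIs, 9 a sum of 3 and 53 a sum of 4 or more. A further 18 cells met every other criterion with a marker sum of 1 UMI and lay just outside. Xcr1, Clec9a and Wdfy4 were seen in 52, 59 and 63 of the cDC1 cells, and the median H2-Ab1 count was 166.5 UMIs in the cDC1 cells against 20 in the cells just outside. None of the 72 cells was called a doublet (61 of the 8527 cells were), and none had a cell barcode that occurred in another library, although 46 barcodes did occur in more than 1 library.

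The label was checked against genes that the rule did not use. Comparison gates were set in the same table, a DC2 gate (94 cells with at least 2 UMIs of Cd209a, Clec10a and Mgl2 and none of Xcr1 or Clec9a) and a pDC gate (73 cells with at least 2 UMIs of Siglech). Levels are given as CPM (UMIs of a gene per 1000000 UMIs) of the sum over the cells of a gate, and they describe the gates without a test. Irf8 stood at 1808 CPM in cDC1, 60.3 CPM in the DC2 gate and 3405 CPM in the pDC gate. Id2, which opposes the pDC programme, stood at 1823, 794 and 78.2 CPM in the same order. Batf3, the factor that cDC1 need to develop, stood at 226, 114 and 5.33 CPM.

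Several lysosomal and adhesion genes and the RNA receptor Tlr3 were higher in cDC1 than in the other gates. Ppt1, a lysosomal thioesterase, was at 1143 CPM in cDC1, 61.4 CPM in the DC2 gate and 110 CPM in the pDC gate. Naaa, a lysosomal amidase, was at 901, 120 and 5.33 CPM, and the endosomal RNA receptor Tlr3 was at 130, 7.16 and 0 CPM. The adhesion molecule Cadm1 was at 255, 12.3 and 44.4 CPM and the integrin chain Itgae at 73.1, 1.02 and 0 CPM. Genes of the other types that no gate used were lower in cDC1, with the calcium-binding protein S100a4 at 204 CPM against 1327 CPM in the DC2 gate and the surface antigen Ly6d at 8.36 CPM against 3636 CPM in the pDC gate.

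**Figure D1:**
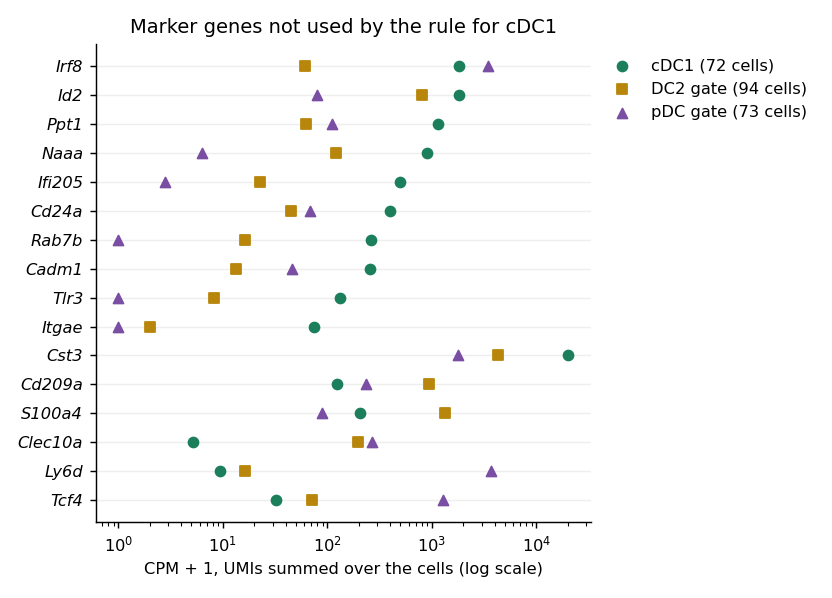
Level of 16 marker genes in the cDC1, DC2 and pDC gates, as CPM + 1 of the UMIs summed over the cells of a gate on a log axis, with 1 point per gate. The identity genes from Ppt1 to Itgae lie furthest right in cDC1, Irf8 lies higher still in the pDC gate, and Cd209a, S100a4 and Clec10a lie furthest right in the DC2 or pDC gate, although Cd209a and Clec10a helped to define the DC2 gate.

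The 72 cells were not uniform. A list of 26 cDC1 identity genes outside the rule was summed in each cell and expressed per 10000 UMIs of that cell. It ran from 49.8 to 142.6 with a median of 93.4 in 60 cells, and from 5.07 to 33.5 with a median of 17.0 in the other 12, with no cell in between. The limit of 40 that separates them was set after the values were seen. The DC2 gate had a median of 16.3 on this scale with 89 of 94 cells below 40, and the pDC gate a median of 39.8 with 37 of 73 cells below 40.

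The 12 low cells had entered the rule near its threshold. Their median marker sum was 2 UMIs, 8 of the 12 were at exactly 2, and Xcr1 was seen in 1 of them, whereas the 60 others had a median of 10.5 marker UMIs. Of the 94 cells of the DC2 gate, which lacked Xcr1 and Clec9a by definition, 47 had Wdfy4. Their depth was nearer, with a median of 10860 against 14684 UMIs per cell, and H2-Ab1 was 12440 CPM in the low cells against 13276 CPM in the others. Identity genes are low in these cells by the split itself, since their sum made it. In the low cells Cd24a, a surface protein typical of cDC1, was at 0 UMIs in each of 12 cells, while 56 of the 60 others had it.

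Other identity genes were low with it, and genes of DC2 and monocyte-derived cells were high in the same cells. Irf8 stood at 189 CPM in the 12 low cells and 2056 CPM in the other 60, and the protease inhibitor Cst3 at 4118 and 22635 CPM. The lectin Cd209a, a DC2 marker, stood at 896 CPM in the low cells (7 of 12 cells) and 2.41 CPM in the others (2 of 60). Ms4a4c, a gene of monocytes, was at 770 and 27.7 CPM, and the Fc receptor gamma chain Fcer1g at 2491 and 198 CPM. The name cDC1 is not borne out for the 12 as a pool, by their summed DC2 and monocyte genes, which the split did not use. Together they carried more of the DC2 and monocyte-derived list (4896 CPM summed) than of the identity list (1894 CPM). This did not hold in every cell. Per 10000 UMIs, the low cell of YAP3d replicate 1 had 17.2 of the DC2 list against 18.2 of the identity list. The low cell of YAP7d replicate 1 with 8946 UMIs had 26.8 against 33.5, and that of YAP7d replicate 3 had 16.4 of both. Each other low cell had more of the DC2 list.

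The low cells were spread over 7 of the 9 libraries and were 2 of 18 cells in WT, 4 of 33 in YAP3d and 6 of 21 in YAP7d. YAP7d replicate 1 held 4 of the 6 in its group, among 10 cells, and replicates 2 and 3 held 1 each. Several results are given below both with and without these cells.

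**Figure D2:**
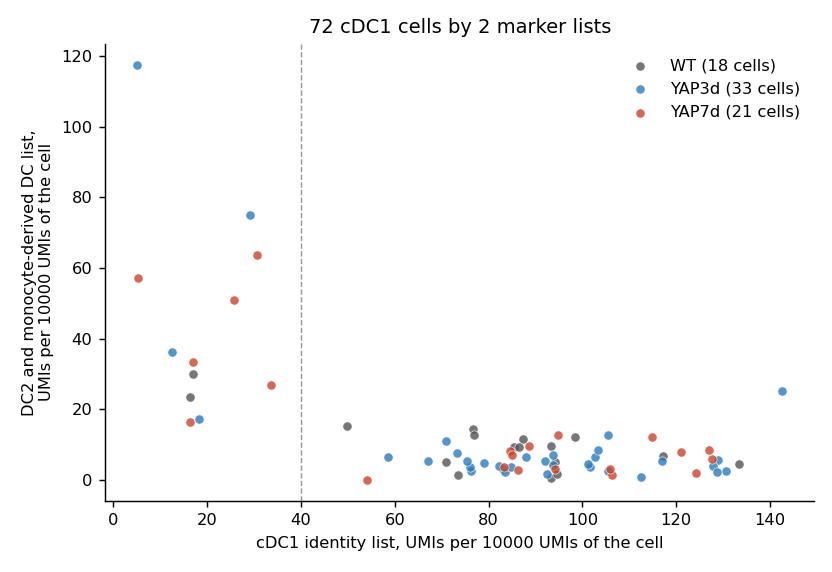
Each of the 72 cells by its summed cDC1 identity list (x axis) and its summed DC2 and monocyte-derived list (y axis), both in UMIs per 10000 UMIs of the cell, coloured by group, with a dashed line at 40. The 60 cells right of the line start at 49.8, and the 12 cells left of it end at 33.5 and include 6 from YAP7d.

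The first comparison asked whether cDC1 became more or less frequent on YAP induction. Their share of cells was 1.34% in WT replicate 1 (exact 95% binomial interval 0.542 to 2.75%) and 0.777% in replicate 2 (0.388 to 1.39%). In YAP3d it was 2.14%, 0.905%, 1.18% and 0.706%, and in YAP7d 1.67%, 1.08% and 0.327%. The groups overlapped. Without the low cells the shares were 1.34% and 0.636% in WT, 1.78%, 0.905%, 0.948% and 0.627% in YAP3d, and 1.0%, 0.868% and 0.273% in YAP7d, which overlapped too. YAP7d minus WT was then -0.276 percentage points (exact permutation p = 0.6). The intervals cover counting error alone.

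Group means were 1.06% ± 0.401 (SD, n = 2) in WT, 1.23% ± 0.633 (SD, n = 4) in YAP3d and 1.03% ± 0.673 (SD, n = 3) in YAP7d. An exact permutation test over the 3 groups gave p = 0.888, and the two-sided exact permutation tests gave p = 1 for YAP7d minus WT (-0.0331 percentage points), p = 0.867 for YAP3d minus WT (0.172) and p = 0.657 for YAP7d minus YAP3d (-0.206). With these library numbers the pairs cannot go below 0.1, 0.067 and 0.029. No difference in share was detectable with the cells as deposited. Each cell was also thinned to 2000 UMIs and the whole rule applied again, so that cells met it at equal depth. The shares were 1.16% and 0.839% in WT, 2.33%, 0%, 1.38% and 0.783% in YAP3d and 0.501%, 0.651% and 0.709% in YAP7d. Each YAP7d library then lay below both WT libraries, with a mean difference of -0.381 percentage points (exact permutation p = 0.1, the smallest these library numbers allow). Cells with fewer UMIs than that were left out, 105 to 177 deposited cells per library in WT, 34 to 133 in YAP3d and 0 to 1 in YAP7d, and the thinned rule took 4 and 11 cells in WT and 3, 3 and 13 in YAP7d, where replicate 3 held 6 before. As a share of the unthinned cells in the 3 dendritic gates, cDC1 were 50% and 37.9% in WT, 21.1% to 66.7% in YAP3d and 26.3%, 38.5% and 11.8% in YAP7d. The groups overlapped (exact permutation p = 0.415 over the groups and 0.3 for YAP7d minus WT).

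**Figure D3:**
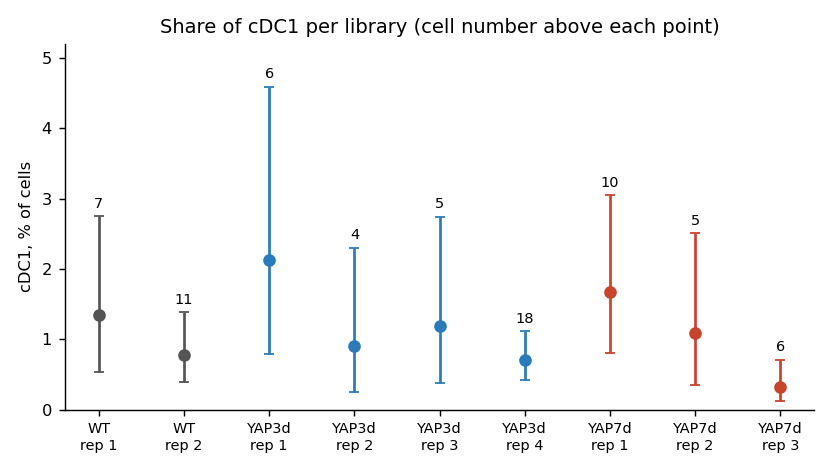
Share of cDC1 among cells with at least 200 genes, in percent, in each of the 9 libraries, with exact 95% binomial intervals and the number of cDC1 cells printed above each point. YAP3d replicate 1 is the highest at 2.14% and YAP7d replicate 3 the lowest at 0.327%, and the 3 groups overlap.

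Gene levels within cDC1 were compared between groups on UMIs summed per library over its cDC1 cells, from 41676 to 230528 UMIs. The edgeR quasi-likelihood test took libraries with at least 5 cDC1 cells, which left out YAP3d replicate 2 with 4 cells, and tested 1849 genes in 2 WT, 3 YAP3d and 3 YAP7d libraries. At a Benjamini-Hochberg adjusted p below 0.05 it called 2 genes in YAP7d against WT and 2 in YAP3d against WT, each 0.108% of the genes tested, and 1 in YAP7d against YAP3d, or 0.0541%. The first pairs were lower in the YAP group and the last was higher in YAP7d. An unadjusted p below 0.05 was reached by 7.19%, 3.41% and 6.33% of the genes tested in YAP7d against WT, YAP3d against WT and YAP7d against YAP3d, the background for the counts at that limit given for gene lists below.

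The genes called in both comparisons with WT were H2afx and Ube2c, and the same WT libraries enter both. Ube2c encodes the ubiquitin-conjugating enzyme that the anaphase-promoting complex uses to degrade mitotic cyclins. Its level was 372 and 377 CPM in WT, 0, 0, 48.0 and 30.4 CPM in YAP3d, and 24, 37.3 and 50.5 CPM in YAP7d. Every YAP library lay below both WT libraries. The log2 fold change was -3.94 (SE 0.555, edgeR adjusted p = 0.00818) in YAP3d and -3.40 (SE 0.551, edgeR adjusted p = 0.0283) in YAP7d.

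H2afx encodes H2A.X, the histone variant that is phosphorylated beside DNA breaks. It stood at 655 and 349 CPM in WT, at 81.0, 56.8, 96.0 and 52.1 CPM in YAP3d and at 48.0, 18.7 and 50.5 CPM in YAP7d. Here too the WT libraries stood apart from the other 7. The genes had enough counts to be tested through the WT libraries, which held 38 and 54 Ube2c UMIs against 0 to 7 elsewhere, and 67 and 50 H2afx UMIs against 1 to 12 elsewhere. The log2 fold change was -2.85 (SE 0.409, edgeR adjusted p = 0.00818) in YAP3d and -3.58 (SE 0.454, edgeR adjusted p = 0.00424) in YAP7d.

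These calls rest on few libraries. In fits that each left out 1 library, the log2 fold change in YAP7d against WT ran from -3.78 to -3.03 for Ube2c and from -3.99 to -3.03 for H2afx. In YAP3d against WT it ran from -4.65 to -3.39 and from -3.22 to -2.29. In YAP7d against WT the Ube2c call was lost without WT replicate 1 (edgeR adjusted p = 0.0591), WT replicate 2 (0.0804), YAP7d replicate 1 (0.144) or YAP7d replicate 2 (0.114), and that of H2afx without YAP7d replicate 1 (0.0535). In YAP3d against WT both were lost without YAP3d replicate 4 (0.103 for Ube2c, 0.143 for H2afx), and H2afx also without WT replicate 1 (0.209).

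The 5 genes next in line in YAP3d against WT, which did not pass, were Hmgb2, Hist1h2ap, Birc5, Cks1b and Cks2. In YAP7d against WT they were Hist1h2ap, Wfdc17, Fcer1g, Fos and the histone variant H2afv, the last at -1.73 (edgeR adjusted p = 0.133). Hmgb2, a chromatin protein abundant in proliferating cells, stood at 2416 and 1313 CPM in WT, 355 to 620 CPM in YAP3d and 520 to 1125 CPM in YAP7d (YAP3d against WT, log2 fold change -1.78, SE 0.365, edgeR adjusted p = 0.151). Birc5, or survivin, stood at 235 and 168 CPM in WT, 0 to 72 CPM in YAP3d and 18.7 to 101 CPM in YAP7d (YAP3d against WT, -3.08, SE 0.672, edgeR adjusted p = 0.157). Cks2, a cyclin-dependent kinase subunit, was at 264 and 168 CPM in WT, 0 to 63.0 CPM in YAP3d and 37.9 to 120 CPM in YAP7d (YAP3d against WT, -2.51, SE 0.567, edgeR adjusted p = 0.171). Its paralogue Cks1b gave -2.02 (SE 0.444, edgeR adjusted p = 0.157) in the same comparison. The replication histone Hist1h2ap gave -4.28 in YAP7d and -3.06 in YAP3d against WT (edgeR adjusted p = 0.0528 and 0.151), a value that is uncertain because histone genes of this family are near-identical and can share reads.

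The pattern was then read over the whole list of 30 mitosis and G2 phase genes, of which 13 had enough counts to be tested. Ube2c passed in both comparisons with WT and no other member did. Each YAP7d library lay below both WT libraries for 23 of the 30 genes, against 9.38% of the 11627 genes with a UMI in cDC1, and each YAP3d library did for 27 of the 30, against 8.61%. Both counts share the WT libraries, and the genes are expressed together in the same few cells, so they are not independent observations.

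The summed level of the list was 7022 and 3931 CPM in WT, 1269, 610, 912 and 972 CPM in YAP3d, and 1447, 1736 and 1870 CPM in YAP7d. Mki67, the proliferation marker Ki-67, followed this order less cleanly, with 381 and 105 CPM in WT, 81.0, 142, 120 and 8.68 CPM in YAP3d and 48.0, 56.0 and 12.6 CPM in YAP7d. Over all cells of the libraries the list ran in the other direction, from 833 to 1319 CPM in WT and YAP3d and from 2166 to 2415 CPM in YAP7d. In the DC2 gate it was 1160 and 2316 CPM in WT and 3969, 473 and 1221 CPM in YAP7d, with the groups overlapping. A test of whether the change between YAP7d and WT differed between cDC1 and the DC2 gate passed for neither Ube2c (difference of log2 fold changes -4.42, edgeR adjusted p = 0.354) nor H2afx (-2.22, edgeR adjusted p = 1). Without the low cells Ube2c gave -4.11 (edgeR adjusted p = 0.0367) on 4 libraries and -3.94 (edgeR adjusted p = 1) on 6.

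Few cells carried the WT level. The mitosis list reached 101 to 142 UMIs per 10000 in 5 WT cells, 2 of 7 in replicate 1 and 3 of 11 in replicate 2, and its highest value among the other 67 cells was 77.7. The next 5 cells, 4 of YAP7d and 1 of YAP3d, lay between 71.2 and 77.7. The 38 Ube2c UMIs of WT replicate 1 came from 2 cells with 27 and 11, and the 54 of replicate 2 from 5 cells with up to 27. H2afx lay largely in the same cells. The 2 high cells of replicate 1 held 47 and 16 of its 67 UMIs, and the 3 of replicate 2 held 21, 9 and 12 of 50. The remaining libraries held between 0 and 7 Ube2c UMIs each. The 2 high cells of WT replicate 1 had 30226 and 23905 UMIs and the 3 of replicate 2 had 15325, 14361 and 9704, against a median of 13265.5 over the 72 cells. The part of depth in the result was not tested.

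Counted as cells, Ube2c was detected in 2 of 7 and 5 of 11 cells of WT, in 0 of 6, 0 of 4, 1 of 5 and 2 of 18 cells of YAP3d, and in 1 of 10, 2 of 5 and 2 of 6 cells of YAP7d. The share of each YAP3d library lay below those of both WT libraries, while YAP7d overlapped WT. Cells with Mki67 or Top2a overlapped between the groups. Mki67 or Top2a was detected in 2 of 7 and 5 of 11 cDC1 cells of WT, in 3 of 6, 2 of 4, 2 of 5 and 3 of 18 cells of YAP3d, and in 3 of 10, 2 of 5 and 1 of 6 cells of YAP7d. Over the 72 cells it was 23 (31.9%, exact 95% interval 21.4 to 44.0%), against 23.4% of the DC2 gate and 5.48% of the pDC gate. After thinning to 2000 UMIs the shares were 21.1%, 10.6% and 4.17%. Over all cells with at least 200 genes the share was 13.5%, and 6.95% after thinning. The median depth was 13265.5 UMIs in cDC1, 10711.5 in the DC2 gate and 7942 in the pDC gate. The part of free RNA in these shares was not tested.

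**Figure D4:**
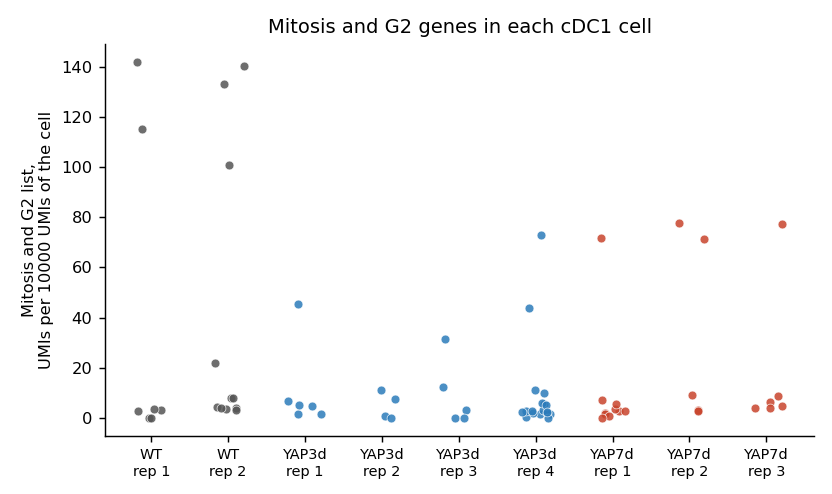
Summed mitosis and G2 phase list in each of the 72 cDC1 cells, in UMIs per 10000 UMIs of the cell, by library (points are spread sideways for sight). The 5 WT cells above 100 stand over the other cells, whose highest value is 77.7, and most cells of every library lie near the bottom.

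Promoter elements known from G2 and M phase genes are the CCAAT box bound by NF-Y and the cell cycle homology region TTTGAA. The 250 bases before the annotated start of Ube2c, Hmgb2 and Cks2 are printed here because Ube2c was called in both comparisons with WT, and Hmgb2 and Cks2 were among the 5 genes next in line in YAP3d against WT without passing. H2afx is not shown. Capitals mark CCAAT or its reverse complement ATTGG and TTTGAA or its reverse complement TTCAAA, and in the Ube2c promoter a CCAAT and an ATTGG overlap in the letters CCAATTGG. The sequences are from RefSeq on GRCm38.p6, plus strand.
Ube2c, chr2:164769679-164769928: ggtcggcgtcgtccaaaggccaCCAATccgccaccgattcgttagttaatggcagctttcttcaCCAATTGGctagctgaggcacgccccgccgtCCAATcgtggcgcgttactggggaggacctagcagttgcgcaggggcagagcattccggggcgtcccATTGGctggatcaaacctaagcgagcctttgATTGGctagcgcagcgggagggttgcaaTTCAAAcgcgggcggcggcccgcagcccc
Hmgb2, chr8:57511593-57511842: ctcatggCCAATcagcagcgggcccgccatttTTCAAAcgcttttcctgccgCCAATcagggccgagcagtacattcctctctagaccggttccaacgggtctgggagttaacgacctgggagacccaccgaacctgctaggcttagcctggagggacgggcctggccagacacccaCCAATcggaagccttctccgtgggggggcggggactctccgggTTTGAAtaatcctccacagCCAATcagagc
Cks2, chr13:51644982-51645231: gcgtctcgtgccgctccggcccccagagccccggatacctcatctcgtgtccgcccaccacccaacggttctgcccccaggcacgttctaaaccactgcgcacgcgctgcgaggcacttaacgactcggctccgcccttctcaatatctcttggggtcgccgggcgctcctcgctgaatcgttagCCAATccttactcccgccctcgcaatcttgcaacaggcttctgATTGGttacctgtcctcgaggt

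On either strand, Ube2c had 6 CCAAT matches and 1 TTTGAA match in this window, Hmgb2 had 4 and 2, and Cks2 had 2 and 0. Of the 30 listed genes, 25 were in the promoter table. CCAAT was in 22 of these (88%) against 37.5% of 27025 promoters, TTTGAA in 11 (44%) against 18.3%, and both in 11 (44%) against 6.45%. A match is a run of letters and not evidence of binding.

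Without the 12 low cells the folds against WT were as large in YAP3d and smaller in YAP7d, where the Ube2c call was lost. The summed mitosis list was 7022 and 4407 CPM in WT, 610 to 1344 CPM in YAP3d and 1998 to 2193 CPM in YAP7d. In the 60 other cells Ube2c was 404 CPM in WT, 21.8 CPM in YAP3d and 47.6 CPM in YAP7d, and none of its UMIs lay in a low cell. Refitted on the 6 libraries that kept at least 5 cells, H2afx gave -2.97 in YAP3d and -3.14 in YAP7d against WT (edgeR adjusted p = 0.0105 and 0.0432), and Ube2c gave -4.15 and -3.10 (edgeR adjusted p = 0.0105 and 0.116). This fit left out YAP3d replicates 2 and 3 and YAP7d replicate 2, which kept 4 cells each. Birc5 passed in YAP3d against WT in it (-3.63, edgeR adjusted p = 0.0241). All 9 libraries entered at a limit of 4 cells. H2afx then gave -2.92 and -3.39 in YAP3d and YAP7d (edgeR adjusted p = 0.00181 and 0.00246), and Ube2c -4.14 and -3.12 (0.00278 and 0.0810). Hmgb2 (-1.83, edgeR adjusted p = 0.0101) and H2afv (-2.03, edgeR adjusted p = 0.0304) also passed in YAP3d against WT, and Birc5 did not.

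The gene called between the YAP groups was Mt1, a metallothionein that binds zinc and copper. It stood at 616, 448 and 265 CPM in YAP7d and at 99.0, 96.0 and 73.7 CPM in the 3 YAP3d libraries of the fit, higher in YAP7d by 2.32 ± 0.346 (SE) on the log2 scale (edgeR adjusted p = 0.0242). YAP3d replicate 2, outside the fit for its 4 cells, stood at 1320 CPM, above every YAP7d library, and 85 of its 93 Mt1 UMIs came from 1 cell. With that library in the fit the log2 fold change was 0.13 (edgeR adjusted p = 0.994). WT libraries stood at 176 and 133 CPM. Of the 122 Mt1 UMIs of YAP7d, 85 lay in the 6 low cells. Without the low cells the log2 fold change was 1.63 (edgeR adjusted p = 0.925) on the 6 libraries that kept at least 5 cells. It was -0.97 (edgeR adjusted p = 0.942) on 9 libraries with at least 4, so the libraries changed along with the cells. The call was also lost without YAP3d replicates 1, 3 or 4 or YAP7d replicates 1 or 2 (edgeR adjusted p = 0.165, 0.0851, 0.355, 0.219 and 0.0551). Over the 8 fits that each left out 1 library of the main fit, the log2 fold change ran from 1.99 to 2.54.

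Several genes that were highest in YAP7d owed their level to the low cells. Fcer1g stood at 333 and 342 CPM in WT, 315, 185, 480 and 308 CPM in YAP3d, and 1119, 616 and 1087 CPM in YAP7d, so that YAP7d did not overlap the other groups, but it did not pass (YAP7d against WT, log2 fold change 1.46, SE 0.318, edgeR adjusted p = 0.128). Of its 259 UMIs in YAP7d, 221 lay in the 6 low cells. In the 60 other cells its level was 268 CPM in WT, 157 CPM in YAP3d and 201 CPM in YAP7d. The refitted change in YAP7d against WT was -0.31 (edgeR adjusted p = 0.995) on 6 libraries and -0.54 (edgeR adjusted p = 0.988) on 9.

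Wfdc17, a secreted protein of activated macrophages, behaved likewise. It stood at 9.78 and 97.8 CPM in WT, 45.0 to 134 CPM in YAP3d and 336, 523 and 531 CPM in YAP7d (YAP7d against WT, 2.91 ± 0.580, SE, on the log2 scale, edgeR adjusted p = 0.0715), and 88 of its 112 YAP7d UMIs lay in low cells. The DC2 marker Cd209a had 75 of 75, the monocyte gene Ms4a4c 73 of 76, the chemokine Ccl5 178 of 185 and the cytokine Il1b 96 of 150 of its YAP7d UMIs in those 6 cells. In the 60 other cells Cd209a was at 0 CPM in WT, 4.84 CPM in YAP3d and 0 CPM in YAP7d.

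**Figure D5:**
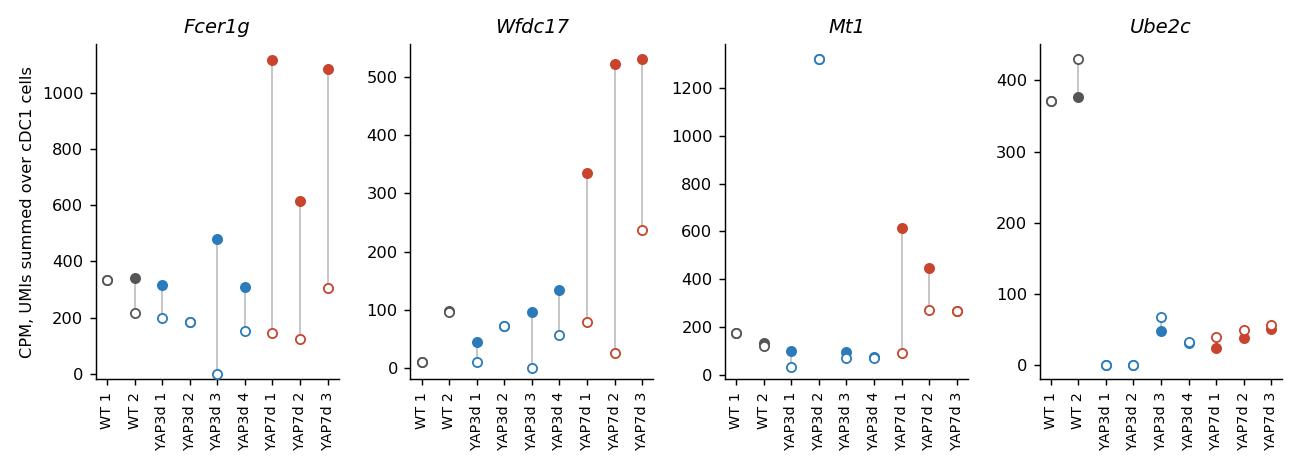
Level of Fcer1g, Wfdc17, Mt1 and Ube2c in CPM of the UMIs summed over the cDC1 cells of each of the 9 libraries, with all cells (filled points) and without the 12 cells low in identity genes (open points), joined by a line. Fcer1g, Wfdc17 and Mt1 are lower in YAP7d replicate 1 once the low cells are left out, whereas Ube2c stays high in the WT libraries.

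Identity genes themselves did not pass in any comparison. Of the 26 in the list 18 were tested, 0 were called by edgeR or DESeq2 in each of the 3 comparisons, and 1, 0 and 0 had an unadjusted p below 0.05 in YAP7d against WT, YAP3d against WT and YAP7d against YAP3d. Their median log2 fold changes were -0.09, 0.13 and -0.25, against medians of 0.03, 0.02 and 0.02 over the genes tested. The summed list ran from 7270 to 11514 CPM with the groups overlapping. The gene under 0.05 was Cd24a, at 450 and 426 CPM in WT, 387 to 456 CPM in YAP3d and 352, 299 and 265 CPM in YAP7d (YAP7d against WT, log2 fold change -0.55, edgeR adjusted p = 0.690). In the 60 cells it was 469, 460 and 429 CPM in WT, YAP3d and YAP7d.

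Irf8 stood at 2787 and 1459 CPM in WT, from 1536 to 2442 CPM in YAP3d and from 1287 to 1923 CPM in YAP7d, and Batf3 at 225 and 293, 198 to 341 and 139 to 192 CPM. Without the low cells Irf8 was 2787 and 1639 CPM in WT, 1669 to 2442 CPM in YAP3d and 1769 to 2541 CPM in YAP7d, and Batf3 was 225 and 326, 208 to 341 and 139 to 274 CPM. With all cells, Batf3 in YAP7d lay below every WT and YAP3d library but did not pass (YAP7d against WT, -0.63 on the log2 scale, edgeR adjusted p = 0.710), and without the low cells the groups overlapped for both genes. Id2 was 1806 CPM ± 392 (SD, n = 2) in WT and 2215 CPM ± 579 (SD, n = 3) in YAP7d. It did not pass (log2 fold change 0.26, edgeR adjusted p = 0.981). Without the low cells its levels were 2083 and 1679 CPM in WT, 2105, 2314, 1450 and 1527 CPM in YAP3d, and 2376, 2368 and 3008 CPM in YAP7d.

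Antigen presentation is the main task of these cells, and its genes were abundant. Cd74, the invariant chain, stood between 22915 and 34822 CPM over the 9 libraries and H2-Aa, a class II alpha chain, between 6599 and 12606 CPM. The class II list of 10 genes without H2-Ab1 summed to between 37168 and 60544 CPM, both extremes in YAP3d. Of its 9 tested members 0 passed by edgeR or DESeq2 in each comparison, with 2, 0 and 2 at an unadjusted p below 0.05.

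The same 2 genes, H2-Oa and H2-Ob, accounted for both counts. They encode the DO molecule that restrains peptide loading by DM. H2-Ob stood at 186 and 126 CPM in WT, 153, 85.2, 72 and 169 CPM in YAP3d, and 80.0, 74.7 and 50.5 CPM in YAP7d (YAP7d against WT, log2 fold change -1.19, edgeR adjusted p = 0.473). H2-Oa stood at 225 and 189 CPM in WT and at 104, 112 and 101 CPM in YAP7d (-1.01, edgeR adjusted p = 0.623). Both were lower in 3 of 3 YAP7d libraries than in 2 of 2 WT libraries without passing the test. That order held for 2 of the 10 list genes, against 9.38% of the 11627 genes with a UMI in cDC1. The levels include the low cells.

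Class I presentation and cross-presentation gave no call in 19 tested of 26 genes by edgeR or DESeq2, with 3, 0 and 1 genes at an unadjusted p below 0.05 and summed levels between 12458 and 18426 CPM. B2m, the class I light chain, was 3518 CPM ± 17.8 (SD, n = 2) in WT and 3362 CPM ± 293 (SD, n = 3) in YAP7d, and Tap1, a chain of the peptide transporter, was 227 CPM ± 93.9 and 286 CPM ± 76.4. Endosomal proteolysis gave 0 calls by either tool among 12 tested genes, with 2, 2 and 3 genes under 0.05. Its summed level was 28841 and 25921 CPM in WT, 19796 to 37434 CPM in YAP3d and 22307, 19844 and 22921 CPM in YAP7d, each YAP7d library below both WT libraries, as also without the low cells (28841 and 27836 against 22718 to 27385 CPM). The median log2 fold change of its tested members in YAP7d against WT had the other sign, at 0.44. Most of the sum was the protease inhibitor Cst3, at 21711 and 18170 CPM in WT and 12489 to 16034 CPM in YAP7d (-0.53 on the log2 scale, edgeR adjusted p = 0.892). Nucleic acid sensing gave 0 calls by either tool among 5 tested and 0 genes under 0.05 in each comparison.

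High levels of activation genes lay in single cells. The maturation and migration list of 30 genes summed to 900 and 964 CPM in WT, to 882, 10363, 504 and 1917 CPM in YAP3d, and to 2463, 691 and 3222 CPM in YAP7d. Without the low cells it was 900 and 692 CPM, 949, 10363, 506 and 1801 CPM, and 718, 814 and 696 CPM in the same order. Of its 8 tested members 0 passed by edgeR or DESeq2, with 2, 0 and 2 under an unadjusted 0.05. In YAP3d replicate 2 a single cell held 107 Il12b, 84 Cd40 and 10 Ccr7 UMIs, with 169 UMIs of the T cell chemokine Cxcl9. Il12b encodes the shared subunit of interleukin-12, Cd40 the receptor for T cell help and Ccr7 the receptor that guides migration to lymph nodes. The cell had 27146 UMIs and an identity list of 101.7 per 10000, well inside the 60. A second cell of that library held 98 UMIs of the chemokine Ccl17 and 85 of Mt1.

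Il12b had 0 to 32.0 CPM in the other 8 libraries. Ccr7 had 11 UMIs in 7 of the 18 cells of YAP3d replicate 4, 10 in 1 cell of YAP7d replicate 1 and 5 in 1 cell of YAP7d replicate 3, both of these low cells, and 0 UMIs in the WT libraries. Cxcl9 had 18 UMIs in 3 cells of YAP3d replicate 4 and 0 to 6 UMIs in each of the remaining libraries, and the actin bundler Fscn1 had 2 UMIs over the 72 cells. In YAP7d replicate 1 the Ccl17 UMIs came from 2 cells with 33 and 26, both among the low cells.

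Cytokine genes varied between libraries without a call. Of 13 tested chemokine, cytokine and receptor genes 0 passed in any comparison by edgeR or DESeq2, with 2, 3 and 5 under an unadjusted 0.05. Ccl4, a chemokine for T and NK cells, was 636 and 1376 CPM in WT, 156 to 763 CPM in YAP3d and 803 to 1103 CPM in YAP7d. Interferon-stimulated genes gave 0 calls by either tool among 11 tested, with 1, 1 and 2 under 0.05, and the summed list ran from 2233 to 7100 CPM, highest in YAP7d replicate 1, which held 4 low cells. With them left out it ran from 1719 CPM in YAP3d replicate 3 (5711 CPM with its low cell) to 4503 CPM in WT replicate 2, and YAP7d replicate 1 stood at 3877 CPM. In the 12 low cells that list summed to 9297 CPM against 3152 CPM in the 60 others.

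Immediate early and heat shock genes, which respond within minutes to tissue handling, gave 0 calls by edgeR among 20 tested genes and 1 by DESeq2 in YAP7d against WT, with 3, 0 and 5 under 0.05. Fos, the AP-1 subunit, stood at 2807 and 2577 CPM in WT, 1093 to 2143 CPM in YAP3d and 986 to 1727 CPM in YAP7d (YAP7d against WT, log2 fold change -1.16, SE 0.263, edgeR adjusted p = 0.133). Each YAP library lay below both WT libraries. Hspa1a, an inducible heat shock protein, varied from 0 to 2447 CPM over the libraries and was high in WT replicate 2 and YAP3d replicate 3.

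Metabolic and DNA replication genes gave no call. Of 24 tested respiratory chain genes 0 passed by edgeR or DESeq2 and 0 were under an unadjusted 0.05 in each comparison, and the summed list ran from 7374 to 9403 CPM. Glycolysis gave 0 calls by either tool among 10 tested genes, with 1, 0 and 0 under 0.05. DNA replication and S phase gave 0 calls by either tool among 3 tested of 27, with 0 under 0.05 in each, and a sum of 336 to 1764 CPM, highest in YAP3d replicate 1.

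The Hippo pathway list, which holds Yap1, its partners and regulators and some of its target genes, summed to between 152 and 480 CPM in cDC1 and to between 341 and 477 CPM over all cells of the libraries. Its most abundant members in cDC1 were the kinase cofactor Mob1a at 75.8 to 216 CPM and the kinase Stk4 at 12.6 to 85.2 CPM. Yap1 was seen in 1 library, YAP3d replicate 1, at 9.0 CPM, and its paralogue Wwtr1 in WT replicate 2 at 6.98 CPM. The YAP target genes Ctgf, Cyr61 and Ankrd1 had 0 UMIs in the cDC1 cells of each library. Of the other listed targets, Axl had 1 to 4 UMIs in each of 5 libraries, up to 56.8 CPM in YAP3d replicate 2, and Amotl2 had 1 UMI in each of WT replicate 2 and YAP3d replicate 4. Of the 19 Hippo pathway genes listed 14 had a UMI, and 1, Mob1a, was tested and not called by edgeR or DESeq2, nor under 0.05.

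Markers of other cells were low but not absent. Endothelial markers summed to between 362 and 1024 CPM in the cDC1 cells of WT and YAP3d and to between 112 and 227 CPM in YAP7d. Over all cells of the same libraries they were 10028 and 8188 CPM in WT and 544 to 771 CPM in YAP7d, with YAP3d at 1629 to 7069 CPM in between. Of the 4 tested, 0 were called by edgeR or DESeq2, with 2, 1 and 3 under 0.05. Monocyte markers summed to 5029 CPM in the 12 low cells and 2189 CPM in the 60 others, and hepatocyte markers to between 57 and 288 CPM over the libraries. The part of these markers in the results was not tested.

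Whether a change in cDC1 differed from that in the DC2 gate was tested in the 5 libraries with at least 5 cells in both gates, with the library as a block, over 3045 genes. WT entered with replicate 2 alone, whose spread is assumed to be that of the other groups. The difference passed for 1 gene in YAP7d against WT (0.0328% of the genes tested) and for 4 genes in YAP7d against YAP3d (0.131%), and DESeq2 called 0 in each, with 109 and 121 genes at an unadjusted p below 0.05 in edgeR.

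Ccl17 led both, with differences of 11.54 and 9.99 on the log2 scale (edgeR adjusted p = 0.0402 and 0.00268). Its 59 cDC1 UMIs in YAP7d lay in 2 low cells of replicate 1, and without that library the differences were 3.73 and 2.30 (edgeR adjusted p = 1 in each). The others in YAP7d against YAP3d were Dnase1l3, a secreted DNase of dendritic and sinusoidal cells (6.69), the monocyte chemokine Ccl2 (4.86) and the monocyte antigen gene Ly6c2 (-6.28), each at an edgeR adjusted p of 0.0163. The Dnase1l3 call was lost without WT replicate 2 (edgeR adjusted p = 0.0966), YAP3d replicate 3 (0.210) or 4 (0.0789) or YAP7d replicate 3 (0.262), and that of Ccl2 without WT replicate 2 (0.0966), YAP3d replicate 3 (0.178) or 4 (0.772) or YAP7d replicate 1 (0.438). In cDC1, Dnase1l3 stood at 147 and 119 CPM in WT, 288, 610, 96.0 and 421 CPM in YAP3d and 40, 18.7 and 126 CPM in YAP7d, while the DC2 gate held 0 Dnase1l3 UMIs in each YAP7d library. The Ly6c2 difference was led by YAP3d replicate 3, where cDC1 held 37 Ly6c2 UMIs (888 CPM), and it fell to -3.50 (edgeR adjusted p = 0.937) without that library. The 37 Ly6c2 UMIs lay in its 1 low cell, and Ly6c2 was at 0 CPM there without it.

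The difference was then fitted without the low cells. With at least 5 remaining cells it used 4 libraries, 1 each of WT and YAP3d and 2 of YAP7d, which leaves a single residual degree of freedom. In YAP7d against YAP3d Ccl17 gave 2.03 (edgeR adjusted p = 1) and Ly6c2 -2.08 (edgeR adjusted p = 0.950), while Dnase1l3 gave 6.92 (edgeR adjusted p = 0.00972) and Ccl2 5.24 (edgeR adjusted p = 0.00583). In YAP7d against WT Ccl17 gave 3.73 (edgeR adjusted p = 1). With at least 4 remaining cells it used 6 libraries and edgeR called 0 genes in either comparison, with 82 and 83 genes at an unadjusted p below 0.05, and Dnase1l3 and Ccl2 gave 5.43 and 4.30 in YAP7d against YAP3d (edgeR adjusted p = 0.649 and 0.188).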

How the data were processed

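Whole livers were dissociated with collagenase and loaded on Chromium chips. The labels name version 2 and version 3 reagent kits, and the study's methods give version 2 for whole-liver libraries. The authors made the deposited table of UMI counts per gene and cell with Cell Ranger (mm10, per the submitters' processing notes, which also name Seurat 2), and the library of each cell comes from its name. Counts were used as deposited (27998 genes, 63380159 UMIs), with cells of at least 200 genes kept and no limit on mitochondrial counts. Scrublet (expected rate 0.05) called 61 doublets, 0.715% of the cells, and they were kept. UMIs were summed per library over the cDC1 cells, which gave 41676 to 230528 UMIs and limits the tests to abundant genes. Libraries with at least 5 cells were fitted together with edgeR 4.0.16 (filterByExpr, TMM, quasi-likelihood test, Benjamini-Hochberg adjustment) in R 4.3.3, and DESeq2 1.42.0 was run beside it. Shares were compared with two-sided exact permutation tests over libraries (scipy 1.17.1), with exact Clopper-Pearson intervals. The cell rule, the 23 gene lists and the tests were chosen with earlier results of these data known.

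Genes were named by a rule: up to 10 rises and 10 falls with an adjusted p below 0.05, at least 200 CPM in 1 group and no overlap between groups, and, where fewer than 5 were called, the 5 of lowest p as not passed. Rule, haemoglobin, immunoglobulin, mitochondrial, Gm-numbered and Rik genes were left out, and list members could be named with their list. List members under that level, and genes shown for the 12 low cells or for single cells, were picked after their values were seen. Genes next in line in YAP7d against YAP3d also included Rpl23a-ps3, Wdr89 and Rps27rt, whose near-identical copies can share reads. Alternatives were another tool, another scaling, no filter, other cell limits, looser and stricter marker rules, a replicate block and leaving out single libraries. Same-numbered libraries did not deviate together (correlations of their deviations from -0.124 to 0.195), so the numbers were not taken as pairs. The scripts were tested on simulated data. Promoters are from RefSeq on GRCm38.p6.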

Additional observations from a re-analysis of the deposited data

Results flagged for a closer look

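Within the 4 YAP3d libraries, 39 levels were scanned for a library far from the other 3, by the gap to the nearest library over the range of the group against Dixon's 95% critical value for 4 libraries. Chance alone passes about 1 in 20 such groups. Mt1 gave 0.980, with YAP3d replicate 2 at 1320 CPM and the others between 73.7 and 99.0 CPM. The summed maturation and migration list gave 0.857, again for replicate 2, at 10363 CPM. Wdr89 gave 0.856, for replicate 2 at 341 CPM against 850 to 936 CPM. Hist1h2ap gave 0.855, for replicate 1 at 90 CPM against 0 to 13 CPM. Neutrophil markers gave 0.8294, just above the critical value, for replicate 4 at 291 CPM against 27 to 72 CPM. Replicate 2 held 4 cDC1 cells and did not enter the gene tests.

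With the low cells kept, in the libraries with at least 5 cells in both gates, the change between groups differed between the cDC1 gate and the DC2 gate for Ccl17 (difference of log2 fold changes 11.54 in YAP7d against WT and 9.99 in YAP7d against YAP3d), and in YAP7d against YAP3d for Dnase1l3 (6.69), Ccl2 (4.86) and Ly6c2 (-6.28), by the edgeR interaction test. The cDC1 cells held 29 and 3 Ccl2 UMIs in WT replicates 2 and 1, 0 to 6 in the YAP3d libraries and 4 to 23 in the YAP7d libraries. DESeq2 called none of these differences. The 59 Ccl17 UMIs of YAP7d and the 37 Ly6c2 UMIs of YAP3d replicate 3 lay in low cells, and without the low cells neither gene passed (edgeR adjusted p = 1 and 0.950 in YAP7d against YAP3d, on 4 libraries).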

How the results depend on the processing

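The counts of called genes were small and depended on the settings. In YAP7d against WT 2 genes were called, and 7 with DESeq2, 59 with no filter on low counts, 1 with libraries of at least 3 cells, 27 with the stricter marker rule, and 1 without the 12 low cells whether libraries needed 5 or 4 cells. YAP3d against WT went from 2 to 41 with no filter, 45 with the stricter rule (which left YAP3d a single library) and 4 without the low cells at 4 cells per library. YAP7d against YAP3d went from 1 to 29 with no filter and 27 with the stricter rule, and to 0 with libraries of at least 3 cells, with the looser rule and without the low cells at either limit. The cell limits after the low cells were left out were chosen after seeing the data. Leaving out 1 library gave 0 (without YAP7d replicate 1) to 6 (without YAP3d replicate 1) in YAP7d against WT, 0 (without YAP3d replicate 4) to 7 (without WT replicate 2) in YAP3d against WT and 0 to 2 in YAP7d against YAP3d. The same gave 0 to 11 and 0 to 9 genes whose change differed between cDC1 and the DC2 gate in YAP7d against WT and YAP7d against YAP3d, where DESeq2 called 0 and 0 and no filter gave 4 and 9. Without the low cells that test called 4 and 4 genes with libraries of at least 5 remaining cells, and 0 and 0 at 4 cells, where in YAP7d against YAP3d Ccl17 reversed to -4.61 and Ly6c2 to 0.088. With the replicate number as a block the 3 counts were 1, 0 and 0. Leaving out doublets changed no cDC1 cell and is not counted here, nor is the stricter rule where YAP3d is compared. H2afx in YAP7d against WT kept its call in 16 of 17 alternatives and Ube2c in 9, and in YAP3d against WT they did in 13 and 14 of 16, with no reversal. Mt1 kept its call in 6 of 16 and reversed to -0.97 without the low cells in libraries of at least 4 cells. A limit of 10 cells left 1 library per group and was not run. The cause of these shifts was not tested.

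No difference in share reached 0.05 under an alternative, but the pairs with WT cannot go below 0.1 and 0.067, and YAP7d minus WT reached 0.1 after thinning. YAP7d minus WT became 0.0412 percentage points when cells under 500 genes or above 10% mitochondrial UMIs were left out, and YAP3d minus WT became -0.625 among cells with a Ptprc UMI and -3.29 among the 3 dendritic gates. Without single libraries the 3 differences ran from -0.354 to 0.317, -0.128 to 0.456 and -0.527 to 0.144. With 4 to 18 cDC1 cells per library, small changes in share or in low genes could not be seen.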

Other observations

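Gm10709, a predicted gene chosen after its values were seen, divided the libraries in a way that crossed the groups. Over all cells it stood at 3.65 and 11.0 CPM in WT and at 4.69 and 11.2 CPM in YAP3d replicates 3 and 4, but at 347 and 428 CPM in YAP3d replicates 1 and 2 and at 363, 392 and 611 CPM in YAP7d. In cDC1 it was 0, 20.9, 0 and 34.7 CPM in the first set and 261, 440, 264, 317 and 543 CPM in the second. The labels name no batch that matches this division, and its part in the comparisons was not tested. Within the first set, H2afx stood at 655 and 349 CPM in WT against 96.0 and 52.1 CPM in YAP3d, and Ube2c at 372 and 377 CPM against 48.0 and 30.4 CPM, in 2 against 2 libraries chosen after the values were seen. YAP7d and WT lie wholly on opposite sides of the division and cannot be told apart from it.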
